A study of Homo sapiens with 10 samples.

Results

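In EMBOW knockout (KO) HEK293T cells, 1176 WDR5 summits lay at the ends of protein-coding genes with no summit of the wild-type (WT) list nearby. They were chosen by position alone: a KO summit within 1 kb of the start or end of a protein-coding gene, and no WT summit within 5 kb, on chromosomes 1 to 22 and X. They are called KO-only here, and the values that chose them are the summit calls of both lists. The deposited KO list held 21055 summits, of which 11758 were such gene-end summits, so 10.0% of the KO gene-end summits were KO-only. They touched 1166 genes, which is 5.84% of 19974 protein-coding genes and 10.9% of the 10707 genes with any KO gene-end summit. The converse set, WT gene-end summits with no KO summit within 5 kb, held 459 summits, or 4.24% of 10831, at 486 genes, or 2.43% of all protein-coding genes. These counts follow from the rule and are a description.

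The KO cells were HEK293T cells, a human embryonic kidney line carrying the SV40 large T antigen, labelled as EMBOW KO, and the WT cells were labelled wild-type HEK293T. Both were grown in the same medium, and WDR5 was immunoprecipitated with the same antibody from nuclei digested with micrococcal nuclease. A further list came from HEK293T cells that stably express EMBOW-FH and were precipitated on anti-FLAG beads. Each list stands for 1 library, so no difference here has a replicate check and no test across samples was possible. The 95% intervals are exact (Clopper-Pearson) and cover counting error only. The sources used here do not say whether the KO line is 1 clone, and a difference between clones and an effect of the knockout cannot be told apart. The KO list was longer than the WT list of 17660 summits, and read depth is unknown. Nothing in the summit lists checks the knockout itself.

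WDR5 is a WD40-repeat protein that scaffolds the COMPASS complexes, which methylate histone H3 at lysine 4, together with RBBP5, ASH2L and DPY30. It also takes part in other chromatin complexes, is recruited to many promoters by MYC, and is found on the mitotic spindle. EMBOW is a human microprotein that binds WDR5 and is translated from an alternative reading frame of the SCRIB transcript.

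The promoters printed next are those of members that the results turn on, taken from RefSeq (GRCh38.p14). They are the 3 highest-scoring members of the mitochondrial assembly and DNA replication lists (ECSIT, RNASEH2A and TIMELESS), mitosis and kinetochore genes (AURKB, BUB1, CENPK), the WDR5 partner RBBP5, and the histone genes with the highest-scoring KO-only summits (H2AC16, H3C10). Each line gives the 250 bases before the RefSeq promoter's start site, 5′ to 3′ on the gene's strand. That site is the outer bound of the gene, from which distances were measured, for 8 of the 9, while for AURKB it lies 350 bp inside the gene. Capitals mark matches, on either strand, to the CCAAT box (CCAAT), the GC box bound by SP1 (GGGCGG), the E-box bound by MYC (CACGTG), the cyclic AMP response element or CRE (TGACGTCA), a ZNF143 site (CTACANNTC) or a TATA box (TATAAA).
ECSIT, chr19:11529135-11529384, minus strand: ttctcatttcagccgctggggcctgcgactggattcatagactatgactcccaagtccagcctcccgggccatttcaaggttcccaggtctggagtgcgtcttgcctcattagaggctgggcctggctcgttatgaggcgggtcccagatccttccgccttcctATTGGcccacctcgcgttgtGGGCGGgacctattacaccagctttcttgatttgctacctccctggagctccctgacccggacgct
TIMELESS, chr12:56449427-56449676, minus strand: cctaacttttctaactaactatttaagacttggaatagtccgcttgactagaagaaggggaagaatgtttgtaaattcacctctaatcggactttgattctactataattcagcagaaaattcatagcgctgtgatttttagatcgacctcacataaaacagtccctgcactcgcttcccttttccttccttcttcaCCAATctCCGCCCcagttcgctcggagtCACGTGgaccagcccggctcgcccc
RNASEH2A, chr19:12806334-12806583, plus strand: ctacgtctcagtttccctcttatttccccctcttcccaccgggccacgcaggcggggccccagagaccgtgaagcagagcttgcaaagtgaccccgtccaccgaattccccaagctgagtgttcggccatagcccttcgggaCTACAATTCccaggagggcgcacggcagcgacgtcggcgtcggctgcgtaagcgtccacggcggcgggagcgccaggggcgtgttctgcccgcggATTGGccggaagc
AURKB, chr17:8210226-8210475, minus strand: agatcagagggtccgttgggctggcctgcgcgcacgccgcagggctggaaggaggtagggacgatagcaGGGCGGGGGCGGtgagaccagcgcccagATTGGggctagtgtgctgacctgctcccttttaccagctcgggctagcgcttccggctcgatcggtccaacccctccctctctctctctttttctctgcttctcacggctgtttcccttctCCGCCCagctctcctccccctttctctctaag
BUB1, chr2:110678064-110678313, minus strand: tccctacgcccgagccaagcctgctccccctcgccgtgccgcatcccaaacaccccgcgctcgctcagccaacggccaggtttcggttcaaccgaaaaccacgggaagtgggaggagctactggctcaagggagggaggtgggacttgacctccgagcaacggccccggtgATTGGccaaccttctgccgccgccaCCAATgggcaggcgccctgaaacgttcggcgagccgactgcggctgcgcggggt
CENPK, chr5:65563169-65563418, minus strand: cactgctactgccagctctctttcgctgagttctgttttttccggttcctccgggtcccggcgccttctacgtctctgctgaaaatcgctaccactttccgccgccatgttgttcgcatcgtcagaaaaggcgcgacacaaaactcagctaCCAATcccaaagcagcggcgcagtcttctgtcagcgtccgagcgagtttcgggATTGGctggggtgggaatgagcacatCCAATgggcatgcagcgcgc
RBBP5, chr1:205121979-205122228, minus strand: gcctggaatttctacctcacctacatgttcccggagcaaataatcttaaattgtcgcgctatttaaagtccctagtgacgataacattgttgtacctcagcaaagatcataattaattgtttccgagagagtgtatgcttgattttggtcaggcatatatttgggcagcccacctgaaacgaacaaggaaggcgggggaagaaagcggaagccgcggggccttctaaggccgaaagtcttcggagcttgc
H2AC16, chr6:27865067-27865316, plus strand: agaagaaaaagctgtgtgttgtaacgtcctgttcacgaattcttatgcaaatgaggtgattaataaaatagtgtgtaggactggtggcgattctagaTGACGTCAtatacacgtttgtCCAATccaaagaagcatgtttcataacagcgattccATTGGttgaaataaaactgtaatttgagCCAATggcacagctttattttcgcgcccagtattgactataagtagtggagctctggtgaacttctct
H3C10, chr6:27809801-27810050, plus strand: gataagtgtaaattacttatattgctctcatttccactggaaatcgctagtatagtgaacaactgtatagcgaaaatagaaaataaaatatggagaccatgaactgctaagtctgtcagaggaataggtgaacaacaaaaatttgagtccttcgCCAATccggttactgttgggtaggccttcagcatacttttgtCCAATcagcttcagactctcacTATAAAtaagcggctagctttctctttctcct

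For 7 of these genes the KO-only summit lay just downstream of the printed bases. It was inside the gene at 136 bp from the start of ECSIT, 107 bp from that of TIMELESS, 155 bp at RNASEH2A, 193 bp at CENPK, 277 bp at RBBP5, 150 bp at H2AC16 and 199 bp at H3C10. At BUB1 it was 327 bp upstream of the start. At AURKB it fell within the printed bases, 172 bp upstream of the site they precede and 178 bp inside the outer bound of the gene. The H2AC16 bases hold a CRE and 3 CCAAT boxes, the H3C10 bases hold 2 CCAAT boxes and a TATA box, and the E-box of TIMELESS is the only one in the 9 lines. The RBBP5 bases hold none of the 12 motifs searched.

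The score deposited with each summit has the form of the −log10 q that MACS2 writes, and it was used only within its own list. KO-only summits were mostly weak ones. Their median −log10 q was 4.74, from 1.33 to 24.5, against 10.6 for the 8831 KO gene-end summits with a WT summit within 500 bp, which are called shared. Of the KO-only summits 45.7% (42.8 to 48.6%) had a q of 1e-05 or less, as had 84.0% of shared ones (83.2 to 84.7%). A further 1751 KO gene-end summits had their nearest WT summit beyond 500 bp but within 5 kb. Their median was 4.78, and 47.5% (45.2 to 49.9%) had a q of 1e-05 or less. Low scores were thus not particular to KO-only summits. Only 5 KO-only summits, or 0.425% (0.138 to 0.989%), stood among the top 10% of the KO list by score, against 17.5% of the shared ones. For the 1751 summits between these groups it was 3.20% (2.42 to 4.13%), above the KO-only share. WT-only summits had a median of 4.37 in their own list and 39.7% (35.1 to 44.3%) at a q of 1e-05 or less.

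The share of gene-end summits without a partner fell with score in both lists. Among KO gene-end summits with a −log10 q of 1.3 to 2, 29.7% (24.2 to 35.7%) were KO-only, while 14.5% (12.9 to 16.2%) were at a −log10 q of 5 to 7 and 1.22% (0.776 to 1.83%) at 15 to 25. Of the 933 KO gene-end summits above 25, 0 were KO-only, which allows a share of up to 0.395%. In the WT list the same bins gave 10.6% (7.24 to 14.7%), 5.38% (4.33 to 6.59%) and 0.201% (0.0416 to 0.588%). In each bin up to a −log10 q of 25 the KO share was above the WT share, with intervals that did not overlap. The scores come from separate peak calls, so equal bins need not be equal enrichment.

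**Figure D1:**
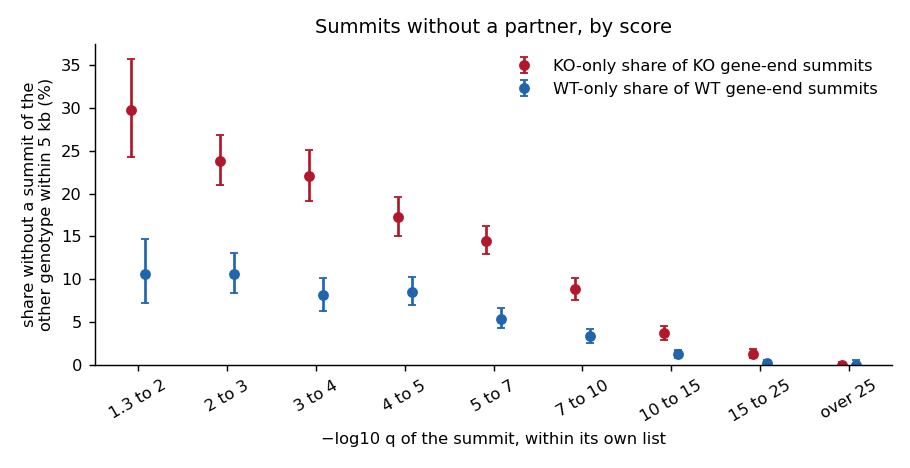
Share of gene-end summits with no summit of the other genotype within 5 kb (vertical axis, percent) by −log10 q of the summit in its own list (horizontal axis), with KO-only in red and WT-only in blue, and bars for exact 95% intervals. Both shares fall with score, the KO one from 29.7% in the lowest bin to 0 of 933 summits above 25.

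The rule asks for no WT summit within 5 kb, so distances to WT summits describe the choice of members. The nearest WT summit lay at a median of 52219.5 bp, with quartiles of 23383 and 125945 bp, and 94 KO-only summits had one within 10 kb. The members farthest from any WT summit were PUDP on chromosome X (a pseudouridine phosphatase gene, 2194974 bp), TRIM32 on chromosome 9 (a ubiquitin ligase, 2075840 bp), ABHD13 on chromosome 13 (1650902 bp), BRWD3 (a bromodomain protein, 1343576 bp) and PPP1R2C (1336114 bp) on chromosome X. Just inside the 5 kb limit were TMEM39A (5037 bp), ZNF516 (5068 bp) and NAPRT (5095 bp). Just under it, and so left out, were summits at PSME1 (4976 bp), KREMEN2 and VGLL2 (both 4930 bp). For the 1 kb window, the last summits taken were at HNRNPH1 (997 bp from the gene end), PLEKHH2 (996 bp) and COL13A1 (993 bp). The first left out were at LOC107984142 (1006 bp), CASP8 and TMEM39B (both 1025 bp). No other KO summit lay within 5 kb of 71.0% of KO-only summits (68.3 to 73.6%), against 49.9% (48.9 to 51.0%) of shared ones. For WT-only summits in their own list it was 85.6% (82.1 to 88.7%). In all, 154 genes carried 2 or more KO-only summits. Of the 1166 genes, 55 had a WT summit at another of their ends, and 1111 had none within 1 kb of either end. Of the summits, 1030 lay near 1 gene, 138 near 2 and 8 near 3.

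The highest-scoring members had varied functions. ECSIT, an assembly factor of mitochondrial complex I, led with a −log10 q of 24.5 on chromosome 19 (rank 1320 of 21055), 23418 bp from the nearest WT summit. BBLN followed at 23.1 and TUT7, a terminal uridylyltransferase that tags RNA for decay, at 23.1, 31561 and 71834 bp from a WT summit. PLEKHH2 had 22.4, TMEM260 (a mannosyltransferase) 21.0 and RPRM (a p53-induced cell cycle inhibitor) 18.7. CDKN2AIP, which binds the ARF tumour suppressor, had 18.2 and TPX2, a spindle assembly factor that activates Aurora A, 18.0. ZNF852 had 17.6, RNASEH2A (the catalytic subunit of ribonuclease H2) 17.3, TIMELESS (a component of the replication fork protection complex) 17.3 and SIN3B (a scaffold of histone deacetylase complexes) 17.2. CGRRF1 had 17.04, ABHD13 with LIG4 (DNA ligase IV, on the opposite strand) 16.7, and ARAP3 16.7. All of these summits lay 91 to 442 bp from the nearest gene end, and of the 15 only the BBLN summit was outside its gene.

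The rest of the 30 highest spanned transport, translation and signalling. TBC1D22B and SLC39A14 (a zinc and manganese transporter) both had a −log10 q of 15.9, MRPL34 (a mitochondrial ribosomal protein, beside ABHD8) 15.9 and UBE2L6 (the conjugating enzyme for ISG15) 15.8. RNF215 had 15.7, LRPAP1 (a chaperone of LDL receptor family proteins) 15.6, KSR2 (a scaffold of the Ras pathway) 15.5 and WIZ (a zinc finger partner of the G9a and GLP methyltransferases) 15.4. MKRN3 (an imprinted gene), CHMP4B (a subunit of ESCRT-III) and FAM221A each had 14.9, ABT1 14.7, EPHX1 (microsomal epoxide hydrolase) 14.6, WWOX (a gene spanning a common fragile site) 14.5 and MRPL39 14.3.

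Member genes were set against 47 gene lists, which hold 4966 genes and were chosen with earlier results of these data known. Among the genes with any KO gene-end summit, 10.9% were KO-only over all genes. Of the 43 lists with 20 or more such genes, 36 had a 95% interval that held this value, 4 lay above it and 3 below it. The intervals do not allow for the number of lists, and genes that share a summit are not independent. In all, 299 member genes were in at least 1 list.

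**Figure D2:**
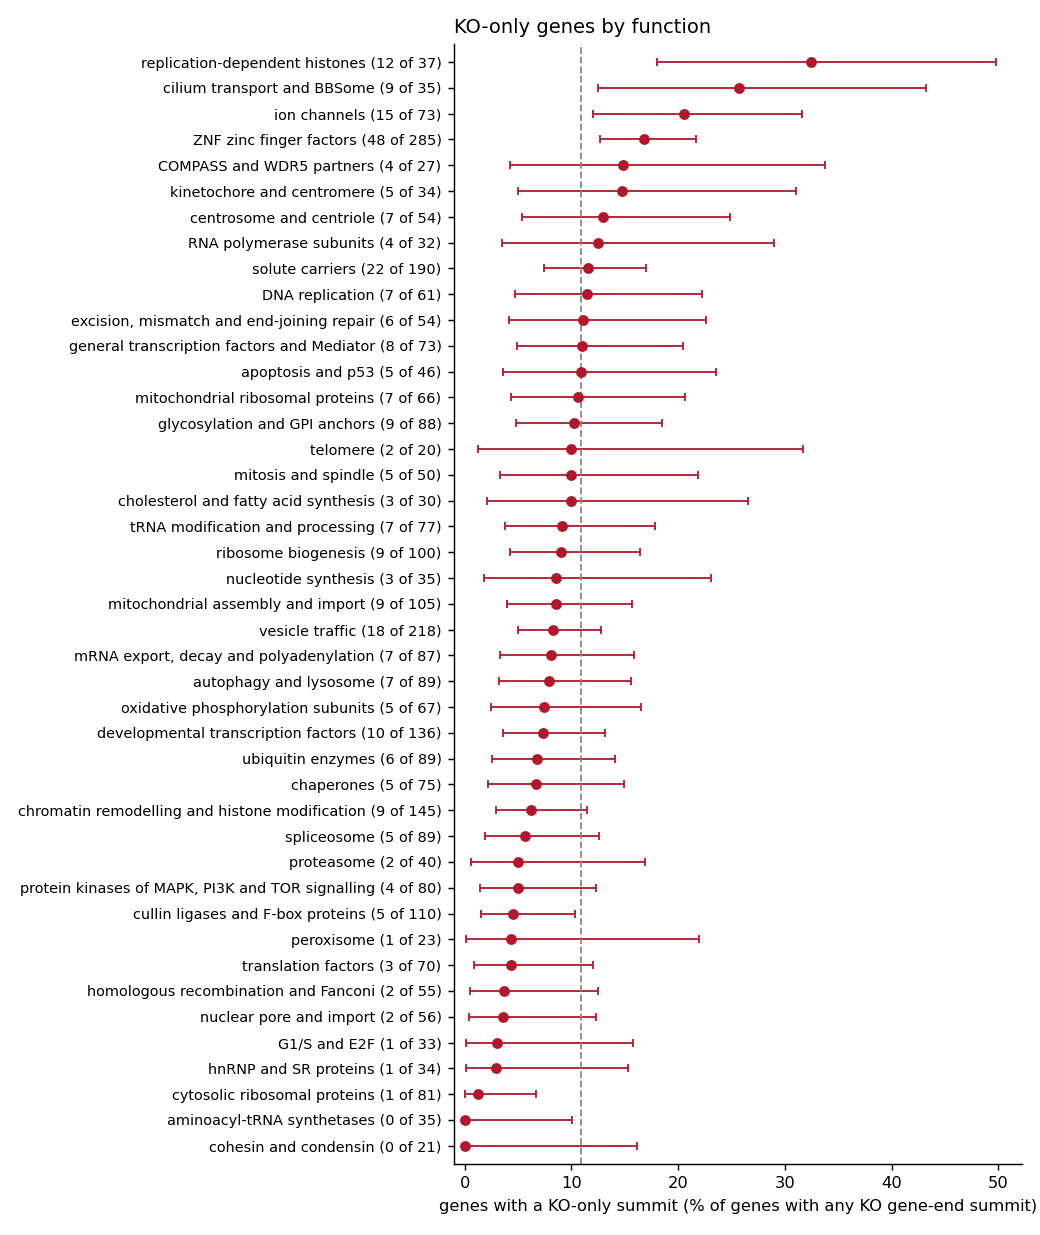
Genes with a KO-only summit as a percent of the genes with any KO gene-end summit (horizontal axis) for the 43 lists with 20 or more such genes, with counts in parentheses and exact 95% intervals as bars. The dashed line is the 10.9% of all genes; histone genes stand highest at 32.4% and the cohesin and aminoacyl-tRNA synthetase lists at 0.

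Genes for replication-dependent histones, which package newly made DNA in S phase, had the highest share. Of 37 histone genes with a KO gene-end summit, 12 (32.4%, 18.0 to 49.8%) were KO-only, and of the 25 with a WT gene-end summit 0 were WT-only, which allows up to 13.7%. The 12 genes were marked by 13 distinct summits, 10 of the genes on chromosome 6 and 2 on chromosome 1. H2AC16 had the highest −log10 q at 14.01, 26587 bp from a WT summit, and 2 further KO-only summits within 1 kb of its ends at 3.35 and 2.75, the lower one also near H1-5. H3C10 had 9.17, H2AC18 with H4C15 7.85, H2BC13 with H2AC13 7.61, H4C5 6.07, H2AC4 5.58, H4C8 4.39, H3C7 3.90 and H4C2 2.003. H4C2 and H4C5 lay nearest to a WT summit, at 5104 and 6468 bp, so a wider limit of 10 kb leaves 10 of the 12 genes. Histone genes are short and near-identical copies of each other. The sources used here do not say how reads that align to several copies were placed, so the split between copies is uncertain.

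Genes of cilium transport, which build and move cargo along the primary cilium, came next with 9 of 35 (25.7%, 12.5 to 43.3%), against 1 WT-only gene of the 27 marked in WT (3.70%, 0.0937 to 18.97%). IFT122, a subunit of the intraflagellar transport A complex, had a −log10 q of 9.84 at a summit shared with MBD4, a thymine glycosylase gene on the opposite strand. TMEM216 of the transition zone had 8.91, IFT27 4.94 and IFT52 4.80, both of intraflagellar transport B. IFT172 had 3.35, MKS1 2.20 and TCTN2 1.51. The RPGRIP1L summit (5.66) lay between RPGRIP1L and FTO and the MKKS summit (2.86) was nearest to LOC128706665, so neither is that gene's alone. Only 3 of the 9 reached a q of 1e-05 or less.

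Ion channels and ZNF zinc finger genes were the other lists above the value of all genes. Ion channel genes, most of them used in nerve and muscle, had 15 of 73 (20.5%, 11.98 to 31.6%) KO-only, against 4 of 60 (6.67%, 1.85 to 16.2%) WT-only. They included KCNK5 (a potassium leak channel) with a −log10 q of 9.25, SCN9A and SCN8A (sodium channels) with 8.41 and 7.61, CHRNA3 (a nicotinic receptor subunit) with 7.09 and KCNJ2 (an inward rectifier) with 6.13. ZNF genes, mostly KRAB zinc finger repressors, had 48 of 285 (16.8%, 12.7 to 21.7%) KO-only and 29 of 266 (10.9%, 7.42 to 15.3%) WT-only. Over all genes the WT-only share was 4.85% (4.44 to 5.29%), so ZNF genes stood above the share of all genes in each genotype. The median of the best −log10 q per KO-marked gene was 7.85 for histone, 7.92 for cilium, 7.50 for ion channel and 8.70 for ZNF genes, against 10.5 for all genes. All 4 lists thus had lower scores than genes at large, and lower scores went with KO-only summits throughout, but the part of score in these shares was not tested.

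Of the lists below the value of all genes, cytosolic ribosomal protein genes had strong WDR5 marks, with a median best −log10 q of 585 in KO. Of 81 cytosolic ribosomal protein genes with a KO gene-end summit, 1 was KO-only (1.23%, 0.0313 to 6.69%). This was RPL26, with a −log10 q of 2.31 at 448 bp beyond its 3′ end. It lay 5973 bp from a WT summit of −log10 q 899. The low count depended on the 5 kb limit. With WT absent within only 1 kb, 13 ribosomal protein genes were KO-only, and within only 500 bp, 26. Over all genes the count went from 1166 to 1724 and 3090, of 10707 marked. Aminoacyl-tRNA synthetase genes, which charge tRNAs, had 0 of 35 (up to 10.0%), and cullin ligase and F-box genes 5 of 110 (4.55%, 1.49 to 10.3%). With WT absent within only 500 bp these counts were 9 and 23, so the place of the 3 lists below all genes is given for the 5 kb limit only. Cohesin and condensin genes had 0 of 21, which allows up to 16.1% and so does not set them apart. Keratin-associated protein and protocadherin genes had no KO gene-end summit. Genes silent in kidney lines had 4 of 51 marked in KO and 3 in WT, and 0 were KO-only. The 1 olfactory receptor member was OR10S1.

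Mitosis and kinetochore genes are of interest because WDR5 acts on the spindle. Among mitosis and spindle genes 5 of 50 (10.0%, 3.33 to 21.8%) were KO-only, near the value of all genes, and 1 of 46 was WT-only. TPX2 had the highest −log10 q at 18.0, 15614 bp from a WT summit of −log10 q 112. AURKB, the kinase of the chromosomal passenger complex, had 9.56 and SGO2, a protector of centromeric cohesion, 8.40. AURKA, the kinase that TPX2 activates, had 7.85 at 488 bp outside the gene, and CSTF1 (a polyadenylation factor) was the nearer gene to that summit. BUB1, a spindle checkpoint kinase, had 2.18, the lowest of the 5, at 442220 bp from a WT summit. Kinetochore and centromere genes had 5 of 34 (14.7%, 4.95 to 31.1%) KO-only and 1 of 30 WT-only. CENPK had 7.85 and CENPC, which binds centromeric nucleosomes, 6.95. SPC25 of the NDC80 complex had 5.58, ZWINT 5.22 and CENPM 5.21. The CENPM summit lay 462 bp outside the gene and near TNFRSF13C, and the strand of CENPM was not known here. That summit is thus not tied to CENPM alone or to its start. The summits of all 5 genes passed a q of 1e-05, and the intervals of both lists hold the 10.9% of all genes.

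Of WDR5's own partners, 4 of 27 marked genes (14.8%, 4.19 to 33.7%) were KO-only, and 0 of 21 were WT-only, up to 16.1%. BOD1L1, a subunit linked to the SETD1A complex, had a −log10 q of 6.62 at 271 bp outside the gene. RBBP5, a core subunit of every COMPASS complex, had 6.25, at 89369 bp from the closest summit of the WT list. MCRS1, a subunit of the NSL complex, had 5.15. CXXC1, which targets SETD1 complexes to CpG islands, had 6.07, but that summit was 337 bp beyond its 3′ end and close to the start of MBD1. In the list of other chromatin genes 9 of 145 (6.21%, 2.88 to 11.5%) were KO-only, led by SIN3B and including MBD1 (6.07). That list takes all sirtuins by symbol, and SIRT4 (8.88) was in it on that ground alone. The interval for partners holds the value of all genes.

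Genome maintenance lists varied in share, and the interval of each list given here held the value of all genes. DNA replication genes had 7 of 61 (11.5%, 4.74 to 22.2%) KO-only and 1 of 55 WT-only. After RNASEH2A and TIMELESS these were GINS4 with a −log10 q of 8.10, ORC4 at a summit nearest to MBD5 with 5.48, POLD2 with 5.42, ORC5 with 5.22 and POLD1 with 2.84. Excision, mismatch and end-joining repair genes had 6 of 54 (11.1%, 4.19 to 22.6%). They included LIG4, and XRCC4, its partner in end joining, at a summit of 6.39 that was nearest to TMEM167A. APEX2, an apurinic endonuclease on chromosome X, had 8.79. Homologous recombination and Fanconi genes had 2 of 55 (3.64%, 0.443 to 12.5%), RAD51C and FANCF, and G1/S genes had 1 of 33 (3.03%, 0.0767 to 15.8%), TFDP1.

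Lists of mitochondrial and RNA genes varied in share as well. Mitochondrial ribosomal protein genes had 7 of 66 (10.6%, 4.37 to 20.6%) KO-only. After MRPL34 and MRPL39 came MRPL33 with a −log10 q of 14.1 and MRPS31 with 7.71. Mitochondrial assembly and import genes had 9 of 105 (8.57%, 3.99 to 15.6%), led by ECSIT and NUBPL (an iron-sulfur cluster factor of complex I, 9.75). Ribosome biogenesis genes had 9 of 100 (9.00%, 4.20 to 16.4%), led by KRR1 (11.7) and UTP20 (10.4), both of small-subunit processing. Oxidative phosphorylation genes had 5 of 67 (7.46%, 2.47 to 16.6%) and spliceosome genes 5 of 89 (5.62%, 1.85 to 12.6%). Translation factor genes had 3 of 70 (4.29%, 0.893 to 12.02%) and hnRNP and SR protein genes 1 of 34 (2.94%, 0.0744 to 15.3%). The intervals of these lists hold the 10.9% of all genes, unlike that of the aminoacyl-tRNA synthetases given above. Vesicle traffic genes had 18 of 218 (8.26%, 4.97 to 12.7%), including CHMP4B and SNX4 (13.3). The 10 developmental factors, of 136 marked (7.35%, 3.58 to 13.1%), had low scores, with HOXB13 at 8.20 and FOXE1 at 6.91 the highest.

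By chromosome, the KO-only share of KO gene-end summits was highest on X, at 69 of 316 (21.8%, 17.4 to 26.8%), then 13, at 41 of 209 (19.6%, 14.5 to 25.7%), and 19, at 120 of 791 (15.2%, 12.7 to 17.9%). Chromosome 15 followed with 49 of 349 (14.04%, 10.6 to 18.1%). It was lowest on 16, at 28 of 539 (5.19%, 3.48 to 7.42%), and 7, at 36 of 556 (6.47%, 4.58 to 8.85%). The WT-only share was also highest on X (8.43%, 5.36 to 12.5%) and 19 (8.05%, 6.13 to 10.3%), but on chromosome 13 it was 3.73% (1.38 to 7.93%), near the 4.24% of the genome. On chromosome 7 it was 6.45% (4.53 to 8.85%), with 36 KO-only against 35 WT-only summits, and on chromosome 20 there were 33 against 4. Over all summits, at gene ends or not, the KO to WT ratio was 1.37 on chromosome 13, 1.40 on 20 and 1.04 on 7. It was 1.19 on X and 1.35 on chromosome 3, where the KO-only share was 8.88%. Whether this ratio bears on the shares was not tested. Chromosomes X and 19 had the lowest median −log10 q of all their KO gene-end summits, 6.80 and 7.42, while chromosome 13 had 9.30 and chromosome 16 had 9.86. Among KO summits with a q of 1e-05 or less the KO-only share was 13.7% (8.77 to 19.95%) on 13 and 13.5% (9.22 to 18.8%) on X, against 6.11% in all. On chromosome 19 it was 9.76% (7.40 to 12.6%).

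**Figure D3:**
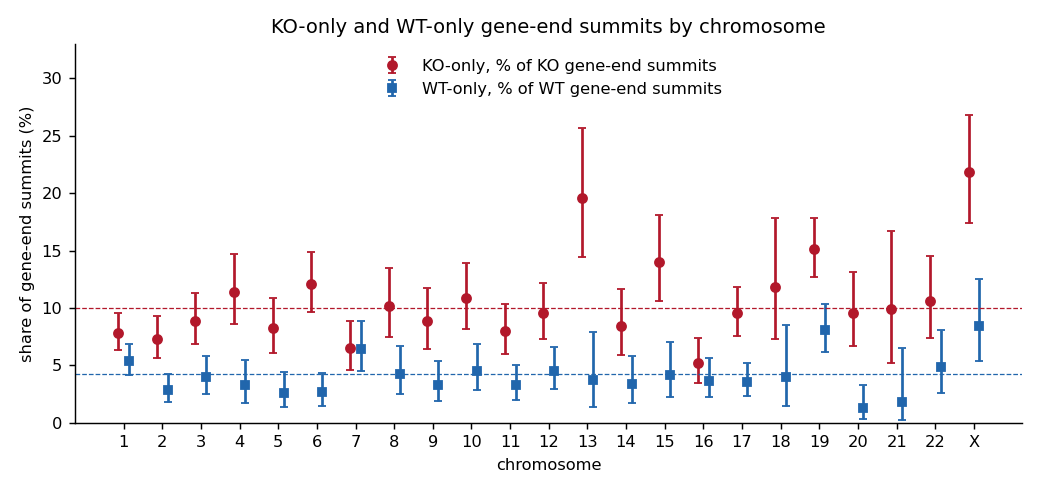
KO-only share of KO gene-end summits (red circles) and WT-only share of WT gene-end summits (blue squares) on each chromosome, in percent, with exact 95% intervals; dashed lines are the genome-wide 10.0% and 4.24%. Chromosomes X and 13 stand highest in KO at 21.8% and 19.6%, and on chromosome 7 the 6.47% in KO and 6.45% in WT are alike.

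The members of these chromosomes were of many kinds. On X the highest-scoring were TMLHE (the first enzyme of carnitine synthesis) with a −log10 q of 12.2, IQSEC2 (an exchange factor of synapses) with 11.8, SYAP1 with 10.4 and PHKA2 (a regulatory subunit of liver phosphorylase kinase) with 10.2. PIN4 (a prolyl isomerase) had 9.42 and SLC35A2 (the UDP-galactose transporter of the Golgi) 8.96. On chromosome 13, after ABHD13, came CHAMP1 (a protein of kinetochore attachment) with 11.7 and CLYBL (a mitochondrial lyase) with 10.8. HMGB1 (an abundant DNA-bending protein) and USPL1 had summits at their neighbouring starts, at 9.86 and 9.75. MICU2 (a regulator of the mitochondrial calcium uniporter) had 9.75.

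On chromosome 19 the ZNF genes formed part of the pattern. Of the 105 ZNF genes there with a KO gene-end summit, 28 (26.7%, 18.5 to 36.2%) were KO-only, against 88 of 597 other genes of that chromosome (14.7%, 11.99 to 17.8%) and 20 of 180 ZNF genes elsewhere (11.1%, 6.92 to 16.6%). The single megabases with the most KO-only summits were chr6:26000001-27000000, with 11 of its 20 KO gene-end summits, and chr15:40000001-41000000, with 8 of 19. The 11 on chromosome 6 were at H4C2, H2AC4, H4C5, H3C7 and H4C8 in the histone cluster and at HFE, BTN2A1, ABT1 and ZNF322. Of the 3 megabases with 7 each, chr19:52000001-53000000 held 7 of 10, all at ZNF genes (ZNF614, ZNF841, ZNF766, ZNF808, ZNF611, ZNF28 and ZNF888), which form a cluster of related genes. Elsewhere members were spread, with 482 megabases holding 1 KO-only summit each and 171 holding 2.

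Most KO-only summits lay at gene starts, as shared and WT-only ones did. A smaller share of them than of shared or WT-only summits lay downstream of the start, but it was close to that of all KO gene-end summits. Where the nearest gene had a known strand, 93.6% (91.9 to 95.1%) of 941 KO-only summits were at the 5′ end, against 97.5% (97.1 to 97.8%) of shared ones. WT-only summits gave 93.6% (90.7 to 95.9%). The 1751 KO summits with a WT summit beyond 500 bp but within 5 kb gave 89.8% (88.1 to 91.3%). At 5′ ends the median KO-only summit lay 178 bp inside the gene, with quartiles of 63 and 326 bp, against 201 bp (117 and 350) for shared and 199 bp (125 and 358) for WT-only summits. Downstream of the start lay 77.3% (74.4 to 80.0%) of KO-only, 81.2% (80.3 to 82.2%) of shared and 86.4% (82.4 to 89.8%) of WT-only summits, with intervals that did not overlap. For all KO gene-end summits it was 76.8% (75.9 to 77.7%), and for the 1751 just named 51.7% (48.9 to 54.5%). A share below that of shared summits was thus not particular to KO-only ones. Within 50 bp of the start lay 2.61% (1.66 to 3.89%) of KO-only, 1.23% (0.985 to 1.51%) of shared and 1.70% (0.626 to 3.66%) of WT-only summits. Genes with a KO-only summit had a median length of 29752 bp, against 31101 bp for shared ones.

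**Figure D4:**
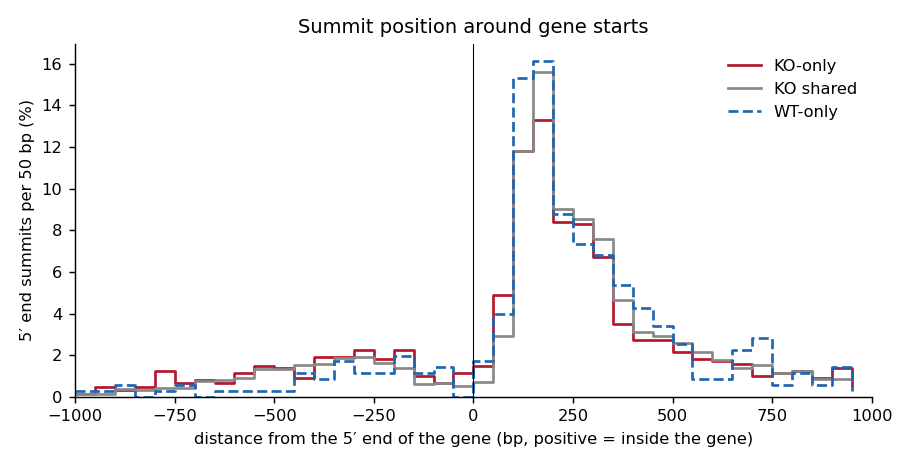
Percent of 5′ end summits in each 50 bp step (vertical axis) by distance from the gene start in bp (horizontal axis, positive inside the gene), for KO-only (red), shared (grey) and WT-only (blue dashed) summits. All 3 curves peak at 150 to 200 bp inside the gene, with medians of 178, 201 and 199 bp.

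KO-only summits were less often between closely spaced genes than shared ones, and so were WT-only summits. A summit with 2 or more genes within 1 kb was found in 12.4% (10.6 to 14.4%) of KO-only and 17.9% (17.1 to 18.7%) of shared summits, and in 11.1% (8.39 to 14.3%) of WT-only summits. Starts of genes on both strands lay within 1 kb of 8.78% (7.01 to 10.8%) of KO-only and 13.2% (12.4 to 13.97%) of shared 5′ end summits, as at ABHD13 and LIG4. The end of a long non-coding RNA gene lay within 1 kb of 15.3% (13.3 to 17.5%) of KO-only and 21.6% (20.8 to 22.5%) of shared summits. WT-only summits gave 18.3% (14.9 to 22.1%), an interval that overlaps both. For 2 or more genes within 1 kb, KO-only and WT-only summits both lay below shared ones. KO summits with a WT summit beyond 500 bp but within 5 kb gave 18.3% (16.5 to 20.2%). KO-only and WT-only summits were both chosen to have no partner within 5 kb. Whether that choice bears on these shares was not tested.

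The promoters of KO-only genes were mostly CpG-rich. A RefSeq promoter (250 bases before to 50 after the start, GRCh38.p14) was used only for genes with a KO-only summit at the 5′ end. Genes that also had a shared summit there were left out, which gave 869 promoters. Promoters with a shared summit were likewise taken without a KO-only one, and WT-only promoters without either. Their median GC content was 64.3%, against 67.0% for 7207 promoters with a shared summit, 64.3% for 371 with a WT-only summit and 55.7% for 6645 without a WDR5 summit at the 5′ end. A ratio of observed to expected CpG of 0.6 or more was found in 86.1% (83.6 to 88.3%) of KO-only, 91.5% (90.9 to 92.2%) of shared and 80.1% (75.6 to 84.0%) of WT-only promoters, against 32.4% (31.2 to 33.5%) of those without a summit. KO-only promoters thus stood much nearer to shared ones than to unmarked ones.

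Searched on both strands, the E-box CACGTG was in 7.02% (5.41 to 8.93%) of KO-only promoters, against 11.6% (10.9 to 12.3%) of shared ones and 8.87% of all 15812. WT-only promoters had it in 9.97% (7.12 to 13.5%). The difference between KO-only and shared promoters was seen at each level of score. It was 6.51% (4.33 to 9.33%) against 10.3% (8.40 to 12.6%) at a −log10 q of 1.3 to 5, 7.56% (5.04 to 10.8%) against 10.5% (9.22 to 11.9%) at 5 to 10, and 7.22% (2.95 to 14.3%) against 12.4% (11.4 to 13.4%) above 10, with intervals that overlap in each. The NRF1 site GCGCATGCG was in 2.65% (1.69 to 3.95%) of KO-only and 4.38% (3.92 to 4.88%) of shared promoters, and in 2.76% of all. The CRE was in 4.95% (3.604 to 6.61%) of KO-only and 3.37% (2.97 to 3.81%) of shared promoters, and in 2.59% of all. Its excess in KO-only promoters was not seen at each level of score. Above a −log10 q of 10 it was in 3.09% (0.642 to 8.77%) of KO-only and 3.36% (2.84 to 3.95%) of shared promoters. A ZNF143 site was in 7.25% (5.62 to 9.18%) of KO-only, 5.41% (4.90 to 5.96%) of shared and 4.54% of all promoters. The ETS site CCGGAAGT was in 8.63% (6.85 to 10.7%) of KO-only, 10.3% (9.64 to 11.1%) of shared, 5.66% (3.54 to 8.52%) of WT-only and 6.20% of all promoters. The YY1 site AAGATGGCG was in 3.34%, 4.45% and 4.85% of KO-only, shared and WT-only promoters, and in 2.74% of all. The GC box was in 70.8% (67.6 to 73.8%) of KO-only, 75.4% (74.4 to 76.4%) of shared and 58.5% of all promoters, so that here too the intervals of KO-only and shared promoters did not overlap. WT-only promoters had it in 68.5% (63.5 to 73.2%), also below shared ones, so the lower share was not particular to KO-only promoters. They had the NRF1 site, the CRE and the ZNF143 site in 3.23%, 3.77% and 4.58%. The Kaiso site CTCGCGAG, the E2F site TTTCCCGC and the cell cycle homology region or CHR (TTTGAA) were in 1.38%, 2.42% and 8.06% of KO-only promoters, against 2.46%, 3.02% and 8.63% of shared ones and 1.53%, 2.18% and 12.1% of all. A match is a string of letters and not a shown binding site, and matches of different motifs may overlap. The start site was the outer gene bound for 87.6% of KO-only and 86.9% of shared promoters, and in these alone the E-box was in 6.44% (4.80 to 8.42%) of KO-only and 11.9% (11.1 to 12.7%) of shared ones.

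**Figure D5:**
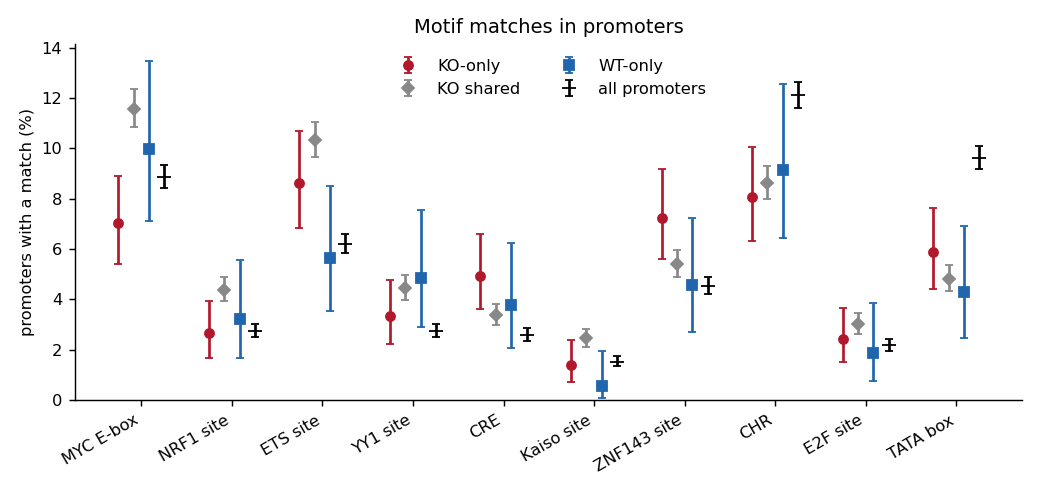
Percent of promoters with a match (vertical axis) for 10 motifs (horizontal axis), in KO-only (red), shared (grey), WT-only (blue) and all 15812 promoters (black), with exact 95% intervals. The E-box stands lower in KO-only promoters (7.02%) than in shared ones (11.6%), and for the other 9 motifs plotted the intervals of KO-only and shared promoters overlap; the CCAAT box and the GC box are not plotted.

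The CCAAT box, a common element of cell cycle promoters, was in 38.8% (35.5 to 42.1%) of KO-only, 36.2% (35.1 to 37.3%) of shared and 36.3% of all promoters. Among the mitosis and kinetochore members, all 7 with a promoter sequence held it (AURKB, BUB1, SGO2, CENPC, CENPK, SPC25 and ZWINT). Only histone members with a KO-only summit within 1 kb of their 5′ end were searched, which leaves out H4C15 and H1-5. Of these 10, 7 held a CCAAT box, 7 a TATA box and 3 a CRE (H2AC16, H4C5 and H4C8). The printed lines show such matches for H2AC16 and H3C10. TATAAA was in 5.87% (4.40 to 7.64%) of KO-only, 4.83% (4.35 to 5.35%) of shared and 9.64% of all promoters, the last including 16.1% of those without a WDR5 summit. These members are few and were picked by name. Genes of the same lists without a KO-only summit were not counted, so the matches are not shown to be particular to KO-only members.

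Tagged EMBOW was almost never called at KO-only summits. An EMBOW summit lay within 500 bp of 3 of 1176 (0.255%, 0.0526 to 0.744%), against 0.125% (0.0622 to 0.223%) of shared and 0.654% (0.135 to 1.90%) of WT-only gene-end summits. These were CHGA (chromogranin A of secretory granules, 48 bp away), CRISP2 (a sperm protein, 215 bp) and OR10S1 (270 bp). LAMA2, a laminin chain of muscle, was the only further one within 5 kb, at 632 bp. The median distance to an EMBOW summit was 1871790 bp from KO-only, 1736800 bp from shared and 1717830 bp from WT-only summits. Such distances were thus common to gene-end WDR5 summits and not particular to KO-only ones. Of KO-only summits 7.82% (6.35 to 9.51%) had one within 100 kb, against 4.81% (4.38 to 5.28%) of shared and 10.2% (7.62 to 13.4%) of WT-only summits. The EMBOW list held 93143 summits, carries no sample label of its own and was matched to the FLAG precipitation by its name. Shares of well under 1% rest on 3 to 11 summits each.

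The authors' deposited table of new WDR5 targets covers most members. Of the KO-only summits, 993, or 84.4% (82.2 to 86.5%), had the 5′ end of a listed transcript within 1 kb, against 4.27% (3.86 to 4.71%) of shared and 0.654% (0.135 to 1.90%) of WT-only summits. The authors chose that list on these samples, so the share is not independent evidence. Of the 15 highest-scoring members, all had a listed 5′ end within 370 bp, while MRPL34, RNF215, WWOX, SGO2 and POLR3B had none within 1 kb.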

How the data were processed

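WDR5 was precipitated from micrococcal nuclease digests of KO and WT HEK293T nuclei, and tagged EMBOW on anti-FLAG beads, per the labels' protocols. MACS2 2.2.7.1, Bowtie2 2.4.5, the hg38 build and deepTools 3.5.1 are named, without role or settings, per the submitters' processing notes. The deposited lists give 1-base summits with a score that was read from its values as the −log10 q written by MACS2, whose lowest value of 1.30 lies at the −log10 of 0.05. Control library, pooling and read depth: the sources used here state none of them. The deposited transcript list (18665 transcripts) was used only for its 5′ ends, and the H3K4me3 and input libraries were not analysed here.

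Distances from each summit to gene ends and to summits of other lists were computed with Python 3.11.15, numpy 2.4.6, pandas 2.3.3 and scipy 1.17.1, and plotted with matplotlib 3.10.9. Genes and coordinates are from RefSeq on GRCh38 (19974 protein-coding genes), and strand comes from RefSeq promoters, known for 15812 genes and for none on chromosome 8. The distance code was tested on simulated data with 400 planted summits and made 0 errors. Motifs were searched on both strands of 300-base RefSeq promoters, whose start site was the outer gene bound for 83.8% of genes. With 1 library per group no test across samples was run.

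The members and gene lists were chosen with earlier results of these data known. Named genes are the 30 highest scores, the 2 highest of each list, the highest of each chromosome, the 5 farthest from a WT summit, those next to each threshold, and all members of the COMPASS, mitosis and kinetochore lists. Other members named were chosen after their values were seen. Alternatives changed the distances, the score threshold, the length of the KO list and the gene end used.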

Additional observations from a re-analysis of the deposited data

How the results depend on the processing

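The number and share of KO-only summits depended on the distance and the score threshold. With WT summits required to be absent within only 500 bp there were 2927 KO-only summits at 3090 genes, or 24.9% of KO gene-end summits. The share was 14.4% at 1 kb, 11.1% at 2 kb and 9.20% at 10 kb. With KO summits at a q of 1e-05 or less there were 537 summits at 583 genes, or 6.11%. With that limit in both lists the share was 18.1%, and with the KO list shortened to the length of the WT list it was 8.64%. Shortening the list also bears on the excess over WT, since the converse WT-only count was then 684 against 932 KO-only summits. The KO-only share exceeded the WT-only share on 23 of 23 chromosomes as reported, on 20 of 23 with the shortened list and on 1 of 23 with the KO list alone held to a q of 1e-05, which removes KO partners of WT summits by construction. Chromosomes X and 13 were the highest 2 in each setting except the absence of WT within 500 bp, where 13, 19 and X led. Of the counts per list, 304 stayed within 1.5 times and 166 did not. The 304 include counts of 0 that stayed 0, and 5 lists had no KO-only gene as reported. The count of cytosolic ribosomal protein genes, 1 as reported, was 13 with WT absent within 1 kb and 26 within 500 bp. The share of members with tagged EMBOW nearby was 0.255% within 500 bp and 0.340% within 1 kb. With only genes whose RefSeq promoter starts at the outer gene bound, the median KO-only summit lay 176 bp inside the gene, against 190 bp for shared ones. That restriction, the E-box and CRE by score, the converse WT counts and the chromosome shares at a stricter q were added after seeing the data. No paired analysis was possible because each group has 1 library. Read depth is unknown, so the depth limit on weak summits cannot be given.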
